A study of Mus musculus with 8 samples.

Results

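The 10 genes of lymphoid priming described here were Cd27, Cd37, Cd52, Ikzf1, Bcl11a, Satb1, Notch1, Tcf7, Lef1 and Dntt. They were taken by gene symbol from the tables of counts and TPM, in which all 10 were found among 24421 genes. TPM is the count per transcript length, scaled to a total of 1e+06 in each library. All 10 passed the filter on low counts, as did 15917 genes in all. RNA was sequenced from mouse long-term haematopoietic stem cells (LT-HSCs), which rebuild the whole blood system after transplantation. The cells came from bone marrow as Lineage-negative, CD117+, Sca1+ cells with high CD150 and low CD48. A GFP reporter of Vwf, the gene of von Willebrand factor, split them into Vwf+ cells, which the study calls megakaryocyte-biased, and Vwf- cells, which it calls non-megakaryocyte-biased. The 4 groups were Vwf+ WT, Vwf+ Dnmt3a+/-, Vwf- WT and Vwf- Dnmt3a+/-, with 2 libraries each. Dnmt3a encodes a DNA methyltransferase that sets new methylation marks, and the kind of Dnmt3a mutation is not given. Mice of all groups were 10 to 12 months old and carried the reporter. Each library pooled 3 to 4 mice, replicate 1 being male and replicate 2 female in every group, so sex and replicate number cannot be told apart. Single mice were not resolved, and the p-values measure the spread between pools.

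The libraries held 21809278 to 39402418 counts and 17524 to 19626 detected genes. Vwf itself stood at 1030 to 1410 CPM in Vwf+ libraries and at 98.9 to 116 CPM in Vwf- libraries. CPM is the count per 1e+06 counts of a library after scaling, and it was used to compare libraries. Dnmt3a stood at 251 (male) and 202 (female) CPM in Vwf- WT and at 361 and 275 CPM in Vwf- Dnmt3a+/- libraries. In Vwf+ libraries it stood at 175 (male) and 203 (female) CPM with the WT genotype and at 179 and 279 CPM in heterozygotes. Its total was thus not lower in Dnmt3a+/- libraries. Gene totals hold reads of both alleles, so they do not show the loss of an allele. The stem cell gene Hlf stood at 365 CPM or more in every library. Of the markers of mature lymphocytes, the B cell gene Pax5 reached at most 0.29 CPM, and the T cell genes Cd3d and Cd3e at most 0.287 and 0.447 CPM. Other genes of the lymphocyte marker lists were present: Cd79b at 10.1 to 17.4, Fcer2a at 2.84 to 7.86, Lck at 6.97 to 10.6, Cd247 at 2.84 to 7.72 and Nkg7 at 1.89 to 8.47 CPM.

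Lymphoid priming is the low expression of lymphocyte genes in stem and progenitor cells that have not yet chosen a lineage. Ikzf1 (Ikaros), Bcl11a and Satb1 are nuclear factors that open or organise lymphoid gene programmes, and each is needed for normal lymphocyte development. Notch1 is the receptor whose signal directs progenitors to the T cell fate in the thymus, where Tcf7 and Lef1 act downstream in the T cell programme. Dntt encodes terminal deoxynucleotidyl transferase, which adds bases at the joins of rearranged antigen receptor genes. Cd27 is a receptor of the TNF family on lymphocytes and on progenitors, Cd37 a tetraspanin of B cells and other leukocytes, and Cd52 a small lipid-anchored glycoprotein of lymphocytes.

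Compared per transcript length, the 10 genes formed a high and a low set. The high set held Cd27 with a median of 144 TPM (76.4 to 185 over the 8 libraries), Bcl11a with 82.3 TPM (74 to 90.7), Ikzf1 with 64 TPM (42.7 to 84.2), Cd37 with 31.5 TPM (17 to 56.9) and Notch1 with 28.8 TPM (25.4 to 36.7). The low set held Cd52 with 5.79 TPM (1.89 to 13.4), Satb1 with 2.35 TPM (1.67 to 4.05), Tcf7 with 1.05 TPM (0.566 to 2.14), Dntt with 0.757 TPM (0.358 to 2.38) and Lef1 with 0.176 TPM (0 to 0.429). Notch1 was the lowest of the high set and exceeded Cd52 in all 8 libraries, with no overlap of their ranges. Within the sets the order was less sharp between some neighbours. Cd37 exceeded Notch1 in 4 of 8 libraries, Tcf7 exceeded Dntt in 6 of 8, and Cd27 exceeded Bcl11a in 7 of 8. Against the mean TPM of all tested genes, Cd27 ranked above 94.5% of them, Bcl11a above 89.2% and Ikzf1 above 84.8%, while Lef1 ranked above 4.1%.

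**Figure D1:**
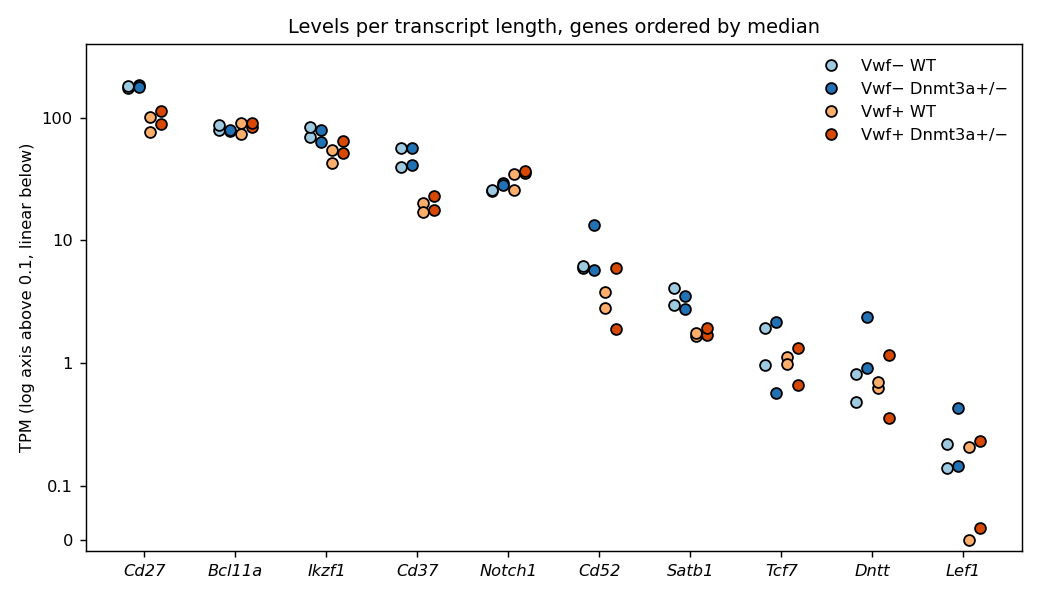
Levels of the 10 genes in TPM (vertical axis, logarithmic above 0.1 and linear below), with genes ordered by their median and 1 point per library, coloured by group. The 5 high genes lie above the rest, from Cd27 at 76.4 to 185 TPM down to Notch1 at 25.4 to 36.7 TPM, and Lef1 reaches 0 in 1 library.

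The first comparison asked how Vwf+ stem cells differ from Vwf- stem cells in these genes. Averaged over genotype, the surface genes Cd27 and Cd37 and the chromatin organiser Satb1 were called lower in Vwf+ cells, and none of the 10 was called higher. The called count was thus 3 lower and 0 higher of 10, where 1.68% of all tested genes were called lower, 3.76% higher and 5.44% in either direction (edgeR quasi-likelihood test, Benjamini-Hochberg adjusted p under 0.05). The median log2 difference of the 10 genes was −0.67, and that of all tested genes was −0.01. By limma on log2(TPM + 1) these medians were −0.38 and −0.04. Cd52, Tcf7, Dntt and Lef1, which enter the medians of the 10, were counted with few reads, with edgeR SE of 0.53 to 1.12. With the replicate number, and so sex, as a block, Ikzf1 was also called lower and Notch1 called higher, which made 4 lower and 1 higher against 5.97% and 7.42% of all genes. In these bulk samples, fewer cells that express a gene and less RNA per cell cannot be told apart.

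Cd27 (GRCm38 chromosome 6, 125232622 to 125237010, minus strand) gave 74.4 (male) and 66.5 (female) CPM for the Vwf+ WT pools and 82.8 and 65.1 for the Vwf+ heterozygotes. The Vwf- pools gave 132 (male) and 127 (female) CPM for WT and 137 and 134 for heterozygotes. Every Vwf+ library lay below every Vwf- library, and the Vwf- values spanned only 127 to 137 CPM. The log2 difference was −0.88 ± 0.11 (SE), or 1.84-fold lower, with an edgeR adjusted p of 0.0014.

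Cd37 (chromosome 7, 45233632 to 45239115, minus strand) showed the largest called difference of the 10. Its CPM was 13.2 (male) and 13 (female) for Vwf+ WT pools and 14.7 and 11.4 for Vwf+ heterozygotes. For Vwf- pools it was 37.7 (male) and 24.7 (female) with the WT genotype and 36.8 and 27.4 in heterozygotes. The groups did not overlap, and within the Vwf- fraction both male libraries lay above both female libraries. Its log2 difference of −1.28 ± 0.18 (SE), or 2.42-fold lower, had an edgeR adjusted p of 0.0029. Exons of Cd37 overlap exons of Tead2 (45215753 to 45233644) on the opposite strand, and the strand setting of the counting is not given in the sources used here. Tead2 went the other way, at 33.9 to 42.2 CPM in Vwf+ and 18.4 to 28.1 CPM in Vwf- libraries, and its part in the counts of Cd37 was not tested.

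The promoter of Cd27, called lower within each genotype, is shown beside that of Notch1, whose difference had the opposite sign. Each is the 250 bases before the RefSeq transcription start (GRCm38.p6, minus strand, written 5′ to 3′ on the gene's strand), with CpG sites, the substrate of DNMT3A, in capitals.
Cd27, chr6:125237028-125237277: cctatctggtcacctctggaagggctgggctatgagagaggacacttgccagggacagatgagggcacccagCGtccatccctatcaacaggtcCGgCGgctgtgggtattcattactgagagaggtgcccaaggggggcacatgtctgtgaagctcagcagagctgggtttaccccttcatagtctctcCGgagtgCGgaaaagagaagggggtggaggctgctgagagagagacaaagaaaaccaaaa
Notch1, chr2:26503823-26504072: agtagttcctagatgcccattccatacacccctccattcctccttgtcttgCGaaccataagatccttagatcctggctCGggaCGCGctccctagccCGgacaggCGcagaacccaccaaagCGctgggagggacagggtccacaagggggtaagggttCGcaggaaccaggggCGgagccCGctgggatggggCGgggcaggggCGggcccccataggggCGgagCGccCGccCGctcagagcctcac
Cd27 has 5 CpG sites in this window and Notch1 has 16, where the median of 32851 RefSeq promoter windows of this length is 6 and the quartiles are 2 and 16. The same window of Cd37 (chr7:45238840-45239089, not printed because it holds annotated 5′ UTR of other Cd37 transcripts) has 8 CpG sites. The Notch1 window lies inside the span given below for the gene (26457903 to 26516663, minus strand), so that span starts upstream of this RefSeq start. Methylation was not measured in these libraries. RefSeq held promoters for 9 of the 10 genes. Motifs of 6 or 7 letters known for lymphoid and stem cell factors were searched on both strands, and none contains another. The RUNX motif was TGTGGT, found in 14.0% of all promoter windows. The motif of GATA factors was AGATAA, found in 9.99% of all promoter windows. The E-box was searched as CAGCTG, found in 13% of all windows, and in a further form as CAGGTG. The motif read for Ikaros was TGGGAA, found in 21.6% of all promoter windows. For the TCF and LEF factors it was CTTTGA, found in 13.8% of all promoter windows, and for ETS factors it was AGGAAGT. The Cd37 window held an ETS match on the other strand, 25 to 19 bases before the start, and a CAGGTG match on the other strand, 175 to 170 bases before it. The ETS letters occur in 7.69% and CAGGTG in 17.2% of all such windows. The Cd27 and Notch1 windows held none of the 7 motifs. A match is a description of letters and not a binding site.

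Cd52 (chromosome 4, 134082448 to 134095082, minus strand) was the third surface gene and was counted with few reads, 10 to 101 per library. Its Vwf+ pools had 0.9 (male) and 0.775 (female) CPM with the WT genotype and 0.439 and 1.38 as heterozygotes. Its Vwf- pools had 1.45 (male) and 1.38 (female) CPM with the WT genotype and 1.34 and 3.22 as heterozygotes. Its Vwf+ value was the lower in each of the 4 pairs of the same genotype and sex, but the ranges overlapped between 1.34 and 1.38 CPM. The log2 difference of −1.03 ± 0.53 (SE) did not pass (edgeR adjusted p = 0.37). It ran from −1.56 to −0.65 as each library in turn was left out. Cd52 shares exonic sequence with Crybg2 on the opposite strand, listed in the table as Aim1l at 0.45 to 1.82 CPM, so reads of the pair cannot be told apart where strand was not used.

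Among the nuclear factors, Ikzf1 (chromosome 11, 11685003 to 11772926) gave 144 (male) and 133 (female) CPM for Vwf+ WT pools and 134 and 168 for Vwf+ heterozygotes. Vwf- WT pools gave 190 (male) and 213 (female) CPM, and Vwf- heterozygotes 169 and 215. The ranges met without overlap, at 168 CPM for the highest Vwf+ and 169 CPM for the lowest Vwf- library. Its log2 difference of −0.44 ± 0.12 (SE), or 1.36-fold lower, missed the threshold (edgeR adjusted p = 0.072). With the replicate block it was −0.44 ± 0.10 and passed (edgeR adjusted p = 0.0043), as it did by DESeq2 (adjusted p = 0.019). On the TPM scale its ranges overlapped slightly, at 42.7 to 64.1 TPM in Vwf+ and 63.9 to 84.2 TPM in Vwf- libraries.

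Bcl11a (chromosome 11, 24078056 to 24174123) varied least of the 10 genes between libraries. Among Vwf+ pools the CPM was 299 (WT male), 287 (WT female), 274 (heterozygous male) and 295 (heterozygous female). Among Vwf- pools it was 268, 276, 257 and 268 in the same order. The Vwf+ value was the higher in all 4 pairs of the same genotype and sex. The ranges overlapped, and the log2 difference of 0.11 ± 0.10 (SE) did not pass (edgeR adjusted p = 0.7).

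Satb1 (chromosome 17, 51736187 to 51833290, minus strand) gave 5.31 (male) and 6.59 (female) CPM for Vwf+ WT pools and 5.26 and 6.05 for Vwf+ heterozygotes. Vwf- WT pools gave 13.2 (male) and 9.1 (female) CPM, and Vwf- heterozygotes 11.2 and 9.04. No Vwf+ library reached the lowest Vwf- library. The log2 difference was −0.87 ± 0.21 (SE), or 1.83-fold lower, with an edgeR adjusted p of 0.041. This call was near the threshold: it was lost on leaving out any library except the female Vwf- Dnmt3a+/- library, with adjusted p of 0.057 to 0.18 over the other 7, and with limma on log2(TPM + 1) (adjusted p = 0.11) or upper-quartile scaling (edgeR adjusted p = 0.051).

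Notch1 (chromosome 2, 26457903 to 26516663, minus strand) was the gene of the list whose Vwf+ libraries all lay above the Vwf- libraries. Vwf+ WT pools had 155 (male) and 135 (female) CPM, and Vwf+ heterozygotes 154 and 161. Vwf- WT pools had 116 (male) and 109 (female) CPM, and Vwf- heterozygotes 131 and 128. Its log2 difference of 0.33 ± 0.10 (SE), or 1.25-fold higher, missed the threshold (edgeR adjusted p = 0.096). With the replicate block it was 0.33 ± 0.09 and passed (edgeR adjusted p = 0.022). On the TPM scale its ranges overlapped, at 25.7 to 36.7 TPM in Vwf+ and 25.4 to 29.4 TPM in Vwf- libraries. Of the Vwf+ libraries, only the female WT library, at 25.7 TPM, lay within the Vwf- range.

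The T cell factors and Dntt were counted with few reads, and none of them passed. Tcf7 (chromosome 11, 52252371 to 52283014, minus strand) gave 1.17 (WT male), 1.21 (WT female), 1.36 (heterozygous male) and 0.688 CPM (heterozygous female) among Vwf+ pools. Among Vwf- pools it gave 1.03, 1.92, 2.24 and 0.607 CPM in that order. Its highest and its lowest value both lay in the Vwf- Dnmt3a+/- group, and the log2 difference was −0.40 ± 0.56 (SE, edgeR adjusted p = 0.81). Without the male library of that group the difference changed sign, to 0.21.

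Lef1 (chromosome 3, 131110471 to 131224356) was the least expressed of the list, with 0 to 31 counts. Vwf+ pools had 0.36 (WT male), 0 (WT female), 0.395 (heterozygous male) and 0.0362 CPM (heterozygous female). Vwf- pools had 0.248, 0.36, 0.74 and 0.255 CPM in that order. The count of 0 in the female Vwf+ WT library allows up to 3 counts, or 0.129 CPM, for counting error only. The ranges overlapped, and the log2 difference of −0.99 ± 1.12 (SE) did not pass (edgeR adjusted p = 0.76). It ran from −3.72 to −0.49 as each library in turn was left out, and was −1.56 ± 1.15 with the replicate block.

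Dntt (chromosome 19, 41029275 to 41059525) gave 0.63 (WT male), 0.818 (WT female), 0.351 (heterozygous male) and 1.16 CPM (heterozygous female) among Vwf+ pools. Among Vwf- pools it gave 0.495, 0.781, 0.907 and 2.43 CPM in that order. The female library of Vwf- Dnmt3a+/- cells, with 76 counts, lay well above the other 7. The female value exceeded the male value in all 4 groups. The log2 difference between Vwf+ and Vwf- cells was −0.47 ± 0.62 (SE, edgeR adjusted p = 0.8). It ran from −1.02 to −0.04 as each library in turn was left out.

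**Figure D2:**
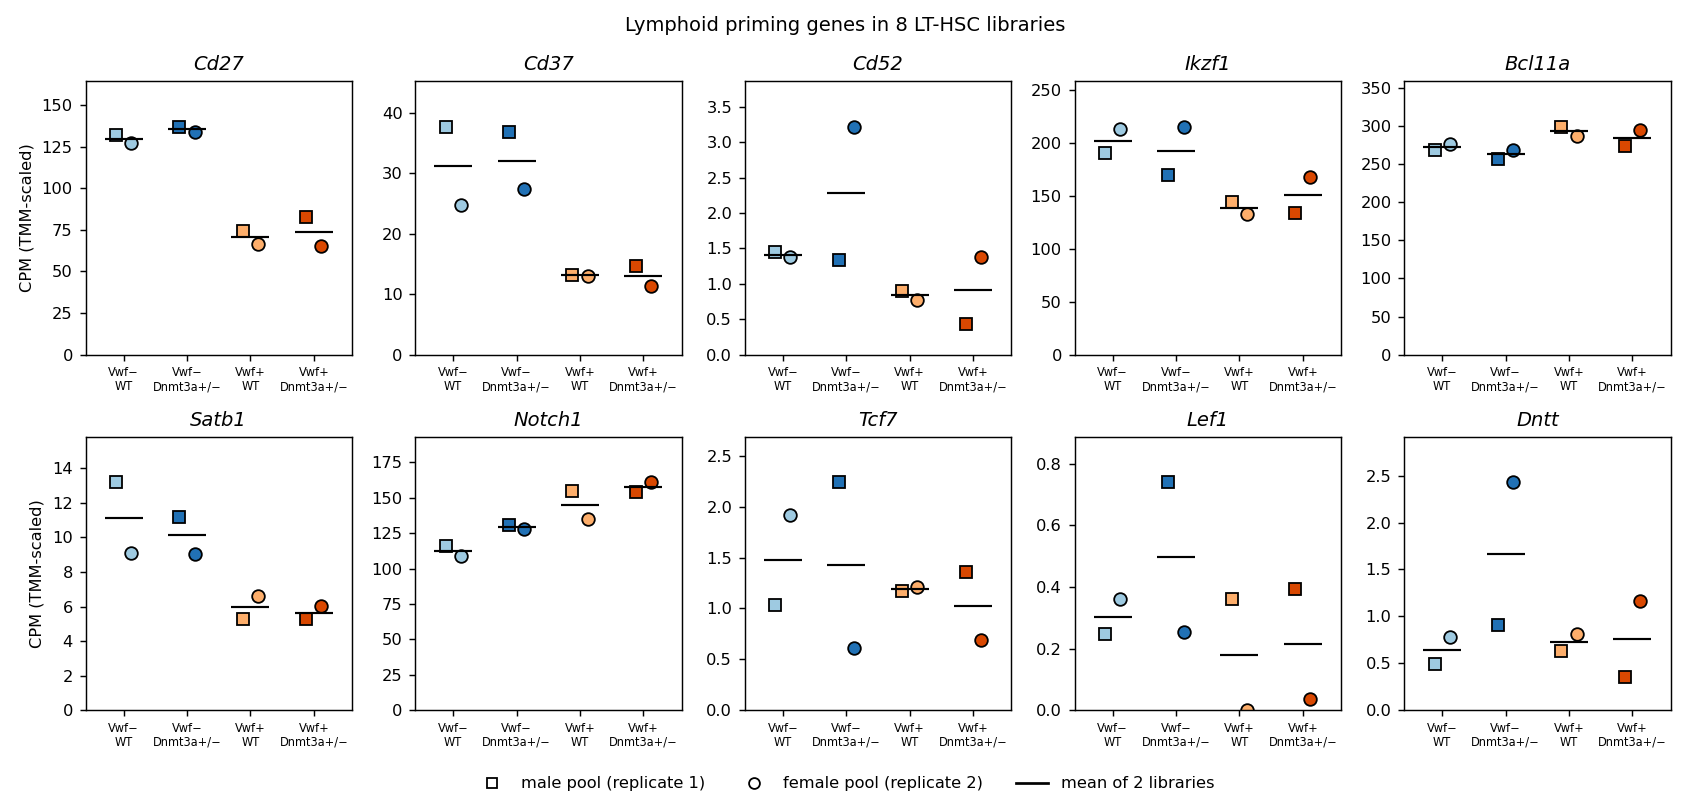
CPM (vertical axes, from 0) of each of the 10 genes in the 4 groups, with squares for male pools, circles for female pools and a line at the mean of the 2 libraries. Cd27, Cd37 and Satb1 are lower in all 4 Vwf+ libraries, Bcl11a is nearly level, and Dntt and Cd52 are highest in the female Vwf- Dnmt3a+/- library.

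Counted without a test, 4 of the 10 genes (Cd27, Cd37, Satb1 and Ikzf1) had all Vwf+ libraries below all Vwf- libraries in CPM, as did 5.33% of all tested genes. Notch1 alone of the 10 had all Vwf+ libraries above, as did 7.71% of all tested genes. In the 4 pairs of the same genotype and sex, 5 of 10 (those 4 and Cd52) were lower in every pair, against 17.7% of all tested genes, and Notch1 and Bcl11a were higher in every pair, against 16.7%.

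Cd27 and Cd37 fell within each genotype. In WT cells Cd27 changed by −0.88 ± 0.15 and Cd37 by −1.25 ± 0.26 on the log2 scale (SE, edgeR adjusted p = 0.02 and 0.039). These were the 2 called of 10, against 0.496% of all tested genes called lower and 1.97% in either direction. In Dnmt3a+/- cells the differences were −0.87 ± 0.15 for Cd27 and −1.30 ± 0.26 for Cd37 (edgeR adjusted p = 0.03 and 0.048), again 2 of 10, against 0.17% of all tested genes called lower and 1.06% in either direction. The difference of Satb1 was −0.90 ± 0.30 with the WT genotype and −0.84 ± 0.30 in heterozygotes and passed in neither (edgeR adjusted p = 0.22 and 0.35). That of Ikzf1 was −0.54 ± 0.17 and −0.34 ± 0.17 (edgeR adjusted p = 0.2 and 0.66). With the replicate block Ikzf1 was the third gene called lower in WT cells (−0.53 ± 0.14, edgeR adjusted p = 0.021), where 3.78% of all tested genes were. Notch1 had 0.37 ± 0.14 and 0.29 ± 0.14 and Bcl11a 0.11 ± 0.15 and 0.11 ± 0.15, and neither passed. The low-count genes were imprecise within a genotype, and none passed. In WT and Dnmt3a+/- cells in turn, Cd52 had −0.75 ± 0.75 and −1.31 ± 0.74, Tcf7 −0.31 ± 0.79 and −0.49 ± 0.79, Lef1 −0.76 ± 1.61 and −1.23 ± 1.57, and Dntt 0.18 ± 0.89 and −1.13 ± 0.88. These calls within a genotype rest on 2 libraries a group. In WT, both were lost without any 1 of the 4 WT libraries, with edgeR adjusted p of 0.056 to 0.27. In Dnmt3a+/- cells, both were lost without the female Vwf+ Dnmt3a+/- library or without either Vwf+ WT library, and Cd37 also without the male library of either Dnmt3a+/- group, with edgeR adjusted p of 0.057 to 0.27. By limma on log2(TPM + 1) 0 of 10 passed in either genotype. The interaction of genotype with Vwf status, which tests whether the Vwf difference differs between genotypes, called 0 of the 10 genes and 0% of all tested genes, and 0 of the 10 had an unadjusted p under 0.05. Its estimates, the Vwf difference in Dnmt3a+/- minus that in WT cells on the log2 scale, were 0.01 ± 0.22 for Cd27, −0.05 ± 0.36 for Cd37, 0.06 ± 0.42 for Satb1, 0.19 ± 0.25 for Ikzf1, −0.08 ± 0.20 for Notch1 and 0.01 ± 0.21 for Bcl11a. For the low-count genes they were −0.56 ± 1.05 (Cd52), −0.18 ± 1.11 (Tcf7), −0.47 ± 2.26 (Lef1) and −1.30 ± 1.25 (Dntt).

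Markers of progenitors differed in the same direction. A list of 5 markers that rise as stem cells become multipotent progenitors summed to 67.4 to 79.3 CPM in Vwf+ and 175 to 293 CPM in Vwf- libraries, with none at 0 in all libraries of a group. Of the 5, 4 were called lower, against 1.68% of all tested genes. Among them were Flt3 (−2.62 ± 0.19), Cd34 (−1.44 ± 0.14) and Cd244 (−3.27 ± 0.68, log2 ± SE), the last from a Vwf+ range of 0 to 0.905 CPM. The call of Cd244 was lost without the male Vwf+ Dnmt3a+/- library. Of the 12 LT-HSC markers, 5 were called higher, against 3.76% of all tested genes. Kit (−0.21 ± 0.12), Hlf (−0.14 ± 0.14) and Meis1 (−0.03 ± 0.12) had differences below 0 and were not called. The sums of the 12 overlapped, at 2930 to 3320 CPM in Vwf+ and 2590 to 2960 CPM in Vwf- libraries. The part of the progenitor and LT-HSC markers in the differences of Cd27, Cd37 and Satb1 was not tested. The 10 listed B cell markers summed to 17.6 to 27.3 CPM in Vwf+ and 16.5 to 24.5 CPM in Vwf- libraries, mostly Cd79b and Fcer2a, and 0 of 8 tested were called by edgeR, with the replicate block, by DESeq2 or by limma, with 0 at an unadjusted p under 0.05. The 15 listed T and NK cell markers summed to 18.1 to 24 CPM in Vwf+ and 24.7 to 27.5 CPM in Vwf- libraries. Lck and Cd247 were the highest of them on average over all libraries. Of the 6 tested, the NK granule gene Nkg7 was called lower (−1.69 ± 0.27), from 7.06 to 8.47 CPM in Vwf- to 1.89 to 3.62 CPM in Vwf+ libraries. The others were not called and went both ways. Lck (0.14 ± 0.18), Cd247 (0.46 ± 0.26) and Cd28 (2 ± 0.96) were above 0, and Cd4 (−1.46 ± 0.45) and Cd5 (−1.22 ± 0.78) below. Genes of this list at 0 in both libraries of a group were found in all 4 groups: Cd3g in Vwf- WT, Ncr1, Klrd1 and Gzma in Vwf- Dnmt3a+/-, Cd3e, Cd8b1 and Klrd1 in Vwf+ WT, and Cd3d, Cd3g, Klrd1 and Gzma in Vwf+ Dnmt3a+/-.

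Summed markers of other lineages differed with Vwf status too. The megakaryocyte markers summed to 562 to 790 CPM in Vwf+ and 307 to 389 CPM in Vwf- libraries, with 3 of 8 tested called higher, among them the integrin gene Itgb3 (1.36 ± 0.12, log2 ± SE). The neutrophil markers summed to 140 to 239 CPM in Vwf+ and 76.3 to 127 CPM in Vwf- libraries, with 2 of 8 tested called higher, among them the granule protease gene Prtn3 (0.88 ± 0.11), while the median of the 8 was −0.38. The monocyte markers summed to 224 to 234 CPM in Vwf+ and 152 to 205 CPM in Vwf- libraries, the dendritic cell markers to 167 to 176 and 147 to 155 CPM, and the erythroid markers to 567 to 712 and 486 to 642 CPM. In these 3 lists edgeR called 0 of 8, 0 of 6 and 0 of 7 tested, with 2, 4 and 3 at an unadjusted p under 0.05. The share of all tested genes at that p in this comparison is not given here. DESeq2 called 1, 2 and 1 of them, the replicate block 2, 4 and 3, and limma 0 in each. Of all tested genes, edgeR called 3.76% higher and 5.44% in either direction, and the replicate block called 13.4% in either direction. The part of these markers in the differences of Cd27, Cd37 and Satb1 was not tested.

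**Figure D3:**
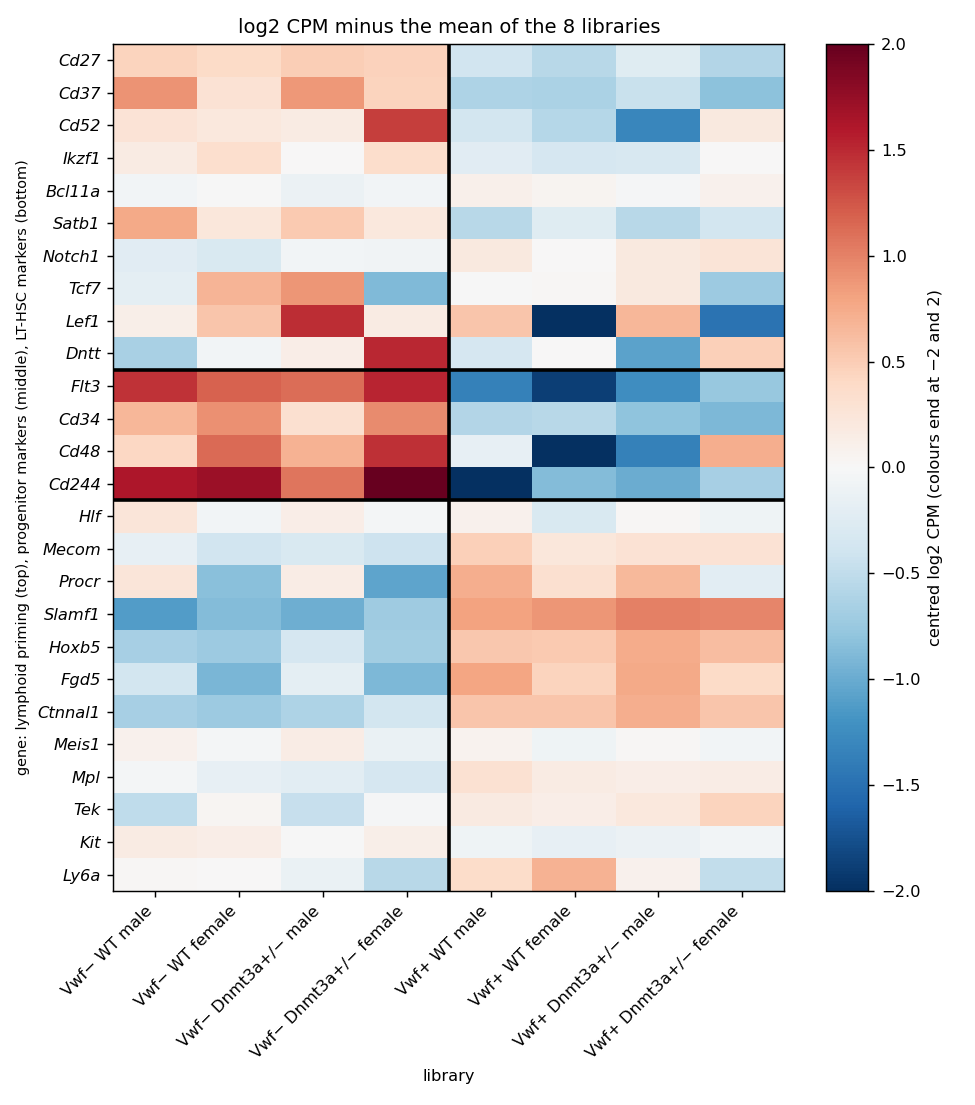
log2 CPM of each gene minus its mean over the 8 libraries (colour, ending at −2 and 2), with the 10 lymphoid priming genes on top, 4 progenitor markers in the middle and the 12 LT-HSC markers at the bottom. Cd27, Cd37 and Satb1 change colour between the Vwf- and the Vwf+ libraries as Flt3 and Cd34 do, and Slamf1 and Hoxb5 change in the opposite direction. Kit, Hlf and Meis1 change little.

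The median log2 difference of 38 other tested genes of lymphoid specification was 0.04. Of the 38, 4 were called lower and 3 higher, against 1.68% and 3.76% of all tested genes. Those with the smallest p were Flt3, the receptor of lymphoid-primed progenitors, Cd34, Ets1, a factor of lymphoid and natural killer cells, which rose by 0.98 ± 0.12, and Runx3, a factor of cytotoxic T cells, with −1.82 ± 0.25 (log2 ± SE). With the replicate block 6 were lower and 9 higher, against 5.97% and 7.42% of all tested genes.

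In the Notch pathway 36 genes were tested, of which 1 was called lower and 3 higher, against 1.68% and 3.76% of all tested genes. The ligand genes Jag1 (1.72 ± 0.20), Jag2 (1.17 ± 0.19) and Dll4 (2.10 ± 0.51) rose in Vwf+ cells, and the coactivator gene Maml3 fell (−0.55 ± 0.14, log2 ± SE). Jag1 stood at 14.5 to 22.1 CPM in Vwf+ and 4.11 to 7.19 CPM in Vwf- libraries. The call of Dll4 was lost without the male Vwf+ Dnmt3a+/- library, either Vwf+ WT library or the female Vwf- WT library. The call of Maml3 was lost without the male Vwf+ Dnmt3a+/-, female Vwf+ WT, female Vwf- Dnmt3a+/- or either Vwf- WT library, and with limma on log2(TPM + 1). The other receptors Notch2, Notch3 and Notch4 had log2 differences of −0.26 ± 0.12, 0.17 ± 0.32 and −0.20 ± 0.27 and did not pass. At 68.7 to 109 TPM, Notch2 stood above Notch1 in level per length. The difference of Notch3 changed sign in 2 of 13 alternative settings.

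In the Ikaros family, the relatives of Ikzf1 went apart. Ikzf2 (Helios) fell by 0.79 on the log2 scale (SE 0.14, edgeR adjusted p = 0.0088), from 56.7 to 77.8 CPM in Vwf- to 31 to 46.4 CPM in Vwf+ libraries. Ikzf4 (Eos) rose by 1.06 ± 0.20 (edgeR adjusted p = 0.012), from 5.59 to 8.5 CPM to 10.9 to 15.8 CPM. The call of Ikzf2 was lost without the female Vwf+ WT library, that of Ikzf4 without the male Vwf- WT library, and both with limma on log2(TPM + 1). Ikzf5 did not pass (−0.16 ± 0.15), and Ikzf3 (Aiolos), with at most 12 counts in a library, was under the filter. Of 17 tested genes of the Ikaros family and the NuRD complex, with which Ikaros acts on chromatin, Ikzf2 and Ikzf4 were the 2 called. Of all tested genes 5.44% were called in either direction.

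The other families gave few calls. Bcl11b, the T cell relative of Bcl11a, had at most 8 counts and was under the filter. The TCF genes Tcf7l1 and Tcf7l2 had log2 differences of −0.50 ± 0.32 and −0.12 ± 0.13, and neither passed. Of 25 tested partners and targets of TCF/LEF factors, 0 were called by edgeR, with 3 at an unadjusted p under 0.05. With the replicate block 1 was lower and 1 higher, by DESeq2 1 was lower, and by limma 0 were called. Of 13 tested genes of end joining and V(D)J recombination, the DNA polymerase gene Polm was called higher (1.23 ± 0.28), a call lost without the male Vwf+ Dnmt3a+/-, male Vwf+ WT or either Vwf- WT library, and with limma on log2(TPM + 1). Among 17 tested genes of the TNF receptor family and CD27 signalling 0 were called by edgeR, with 6 at an unadjusted p under 0.05. With the block 1 was lower and 2 higher, by DESeq2 1 was lower and 1 higher, and by limma 0 were called. Among 21 tested tetraspanins other than Cd37 0 were called by edgeR, with a median log2 difference of 0.25 and 12 at an unadjusted p under 0.05. With the block 2 were lower and 5 higher, by DESeq2 2 were higher, and by limma 0 were called. Of all 15917 tested genes, edgeR called 5.44% in either direction, and the block called 5.97% lower and 7.42% higher. DESeq2 called 547 of them lower and 871 higher, and limma 162 lower and 401 higher. The share of all tested genes at an unadjusted p under 0.05 between Vwf+ and Vwf- cells is not given here. The counts at that p in these lists thus have no background to be read against.

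Likeness of pattern was measured as the root-mean-square difference of log2 CPM, each gene centred on its own mean, over the 8 libraries. It was read for the 3 members that ranged most, among 10171 genes of mean log2 CPM over 3. Nearest to Cd52 were Trip13, Mcm10 and Pbk (0.31, 0.34 and 0.34), where Cd52 itself deviated by 0.73 from its mean. All 3 are genes of the cell division cycle, and a link of Cd52 to that cycle was not tested. Nearest to Dntt were Vldlr, Nsl1 and Lmna (0.41, 0.42 and 0.44), against 0.72 for Dntt itself. Nearest to Lef1 were Shisa8, Slc28a2 and Vamp1 (0.6, 0.64 and 0.65), against 1.1 for Lef1. Among the members, Cd27 and Satb1 differed by 0.24, Cd27 and Cd37 by 0.26 and Satb1 and Cd37 by 0.27, while Dntt was nearest to Cd52 (0.42). Cd52, Dntt and Lef1 were counted with few reads, 10 to 101, 8 to 76 and 0 to 31 per library, so counting error enters their profiles. All genes were read in the same 8 libraries, which differ in depth and sorted fraction, and these values are descriptions with no test.

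The comparison of Dnmt3a+/- with WT cells asked whether the 10 genes differ in Dnmt3a heterozygotes. Averaged over Vwf status, edgeR called 0 of 10, and 0 of all tested genes (0%), with 0 of the 10 and 516 of all genes (3.24%) at an unadjusted p under 0.05. DESeq2 called 16 genes and the replicate block 30 (0.188%), with 0 of the 10 in either. The log2 differences were 0.07 ± 0.11 for Cd27, 0.02 ± 0.18 for Cd37, 0.40 ± 0.52 for Cd52, 0.03 ± 0.12 for Ikzf1 and −0.05 ± 0.10 for Bcl11a. They were −0.10 ± 0.21 for Satb1, 0.16 ± 0.10 for Notch1, −0.13 ± 0.55 for Tcf7, 0.47 ± 1.12 for Lef1 and 0.72 ± 0.62 for Dntt (SE). The precision thus differed widely: the SE was 0.10 to 0.21 for the well counted genes and 0.52 to 1.12 for Cd52, Tcf7, Dntt and Lef1. Within Vwf+ cells and within Vwf- cells edgeR likewise called 0 of 10 and 0% of all tested genes, with 0 of the 10 and 363 (2.28%) and 211 (1.33%) of all genes at an unadjusted p under 0.05. In Vwf+ and Vwf- cells in turn, the genotype difference was 0.07 ± 0.15 and 0.06 ± 0.15 for Cd27, −0.01 ± 0.26 and 0.04 ± 0.25 for Cd37, 0.13 ± 0.76 and 0.68 ± 0.73 for Cd52, 0.12 ± 0.17 and −0.07 ± 0.17 for Ikzf1 and −0.04 ± 0.15 and −0.05 ± 0.15 for Bcl11a. It was −0.07 ± 0.30 and −0.13 ± 0.29 for Satb1, 0.12 ± 0.14 and 0.20 ± 0.14 for Notch1, −0.22 ± 0.80 and −0.04 ± 0.77 for Tcf7, 0.24 ± 1.66 and 0.71 ± 1.51 for Lef1 and 0.07 ± 0.89 and 1.37 ± 0.88 for Dntt. In the interaction 159 genes (0.999%) were at that p, and 0% were called. DESeq2 called 5, 2 and 0 genes in the Vwf+ cells, the Vwf- cells and the interaction, and the replicate block 6 (0.0377%), 2 (0.0126%) and 0 (0%).

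Female and male pools were set against each other in a model that held the 4 group means and sex. Of the 10 genes 0 were called by edgeR, where 10.5% of all tested genes were, and Cd37 had the only unadjusted p under 0.05, where 25.1% of all tested genes had one. By DESeq2 and by limma on log2(TPM + 1) 0 were called too. Cd37 was lower in the female library of each group and had a log2 difference of −0.36 ± 0.13 (SE, edgeR adjusted p = 0.079). Without either Vwf+ WT library the difference of Cd37 was −0.46 and −0.47. That of Ikzf1 was then 0.29 and 0.27, against 0.18 ± 0.10 with all 8. Dntt and Cd52 had differences of 1.04 ± 0.63 and 0.65 ± 0.54, Lef1 −1.81 ± 1.18 and Tcf7 −0.47 ± 0.58. Cd27, Satb1, Notch1 and Bcl11a had −0.15 ± 0.10, −0.10 ± 0.21, −0.06 ± 0.09 and 0.04 ± 0.09. The nuclear RNA Malat1 took 0.974% to 1.97% of counts in male and 0.446% to 0.585% in female libraries, and its part in these differences was not tested.

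**Figure D4:**
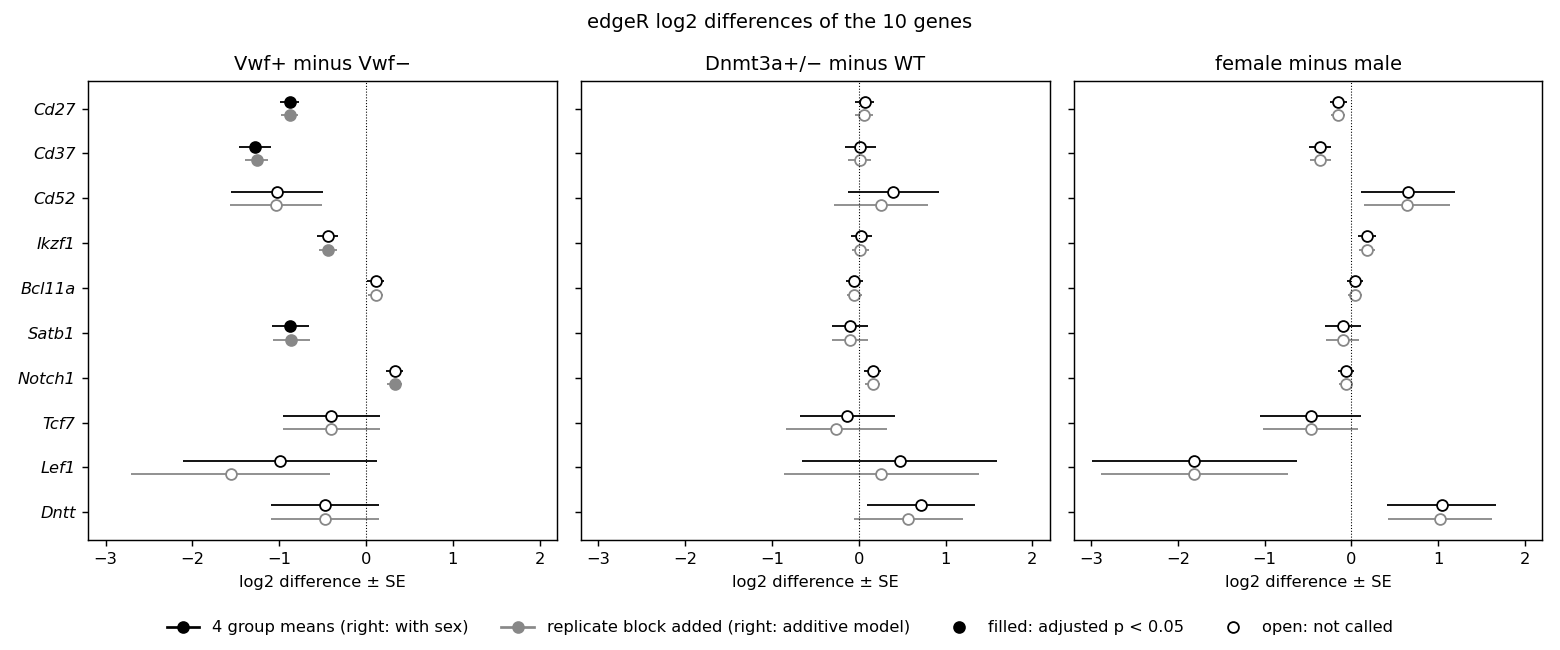
Log2 differences with their SE (horizontal axes) of the 10 genes between Vwf+ and Vwf- cells (left), Dnmt3a+/- and WT cells (middle) and female and male pools (right), in black for the model of 4 group means (with sex added at the right) and in grey for the model with the replicate block (at the right, with Vwf status and genotype as additive terms). Filled points passed an adjusted p of 0.05, which in black are Cd27, Cd37 and Satb1 at the left alone.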

How the data were processed

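RNA of 8 libraries was read from 2 tables of the whole series. The authors' deposited counts are whole reads per gene symbol, and the deposited TPM values sum to 1e+06 in each library. Trim Galore, STAR, featureCounts and DESeq2 and the build mm10 are named in the submitters' processing notes. Versions, annotation and strand setting are not given in the sources used here. Libraries were grouped by Vwf status and genotype from the labels.

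Genes were kept by filterByExpr with a minimum count of 10, which left 15917 of 24421. Counts were scaled by TMM and tested with edgeR 4.0.16 (R 4.3.3) in a quasi-likelihood fit of 4 group means over all 8 libraries, with 4 residual degrees of freedom and Benjamini-Hochberg adjustment at 0.05. Sex was tested by adding it to this fit. SE was derived from the log2 difference and the F statistic. The steps were tested on simulated data. Alternatives were the replicate number as a block, DESeq2 1.42.0, limma 3.58.1 on log2(TPM + 1), upper-quartile scaling, no filter on low counts, fits to the 4 libraries of a contrast and leaving out each library.

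Replicate 1 is male and replicate 2 female in each group per the labels, and deviations from the group means correlated between same-numbered libraries in all 6 pairs of groups (r 0.13 to 0.3 over 15917 genes), so the numbers were read as pairing the libraries. Total counts of 21809278 to 39402418 limit precision for genes of few counts, and a bound from a count of 0 covers counting error only.

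The genes and the lists were chosen with earlier results of these data known. All 10 genes are given in every comparison. Of each other list, up to 4 called genes with the smallest p in the averaged Vwf comparison were named, with the relatives of a member's family. Some genes that this rule or the marker lists name are not reported here. Tead2, Aim1l, Malat1 and the defining or highest markers fall outside this rule and were named after their values were seen. Likeness was read for the 3 members of widest range. Positions are from GENCODE M21 (GRCm38), and promoters from RefSeq.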

Additional observations from a re-analysis of the deposited data

How the results depend on the processing

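Cd27 and Cd37 stayed lower in Vwf+ cells, averaged over genotype, in all 13 alternatives (adjusted p 5e-10 to 0.012 and 7.1e-11 to 0.018). Satb1 was called in 4 of 13, Ikzf1 in 4 and Notch1 in 1. The low counts of Cd52, Tcf7, Dntt and Lef1 limit what could be called. With the replicate block, which takes the pairing by sex into account, 5 of the 10 genes were called in place of 3, and 2 to 3 on leaving out a library. Of the 2 called in WT and the 2 in Dnmt3a+/- cells, upper-quartile scaling left 1 and 1 and limma 0 and 0, the 4 libraries of the contrast alone left 0 in Dnmt3a+/-, and leaving out a library left 0 to 2 in each. For sex the count was 0, and 0 to 2 on leaving out a library.

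Over all genes, 866 were called between Vwf+ and Vwf- cells, 2132 with the block, 1649 without the filter, 1418 by DESeq2, 563 by limma and 472 to 1387 without a library. In WT, 314 became 1329, 1059, 731 and 103 in that order, 747 in the 4 libraries alone and 64 to 639 without a library. In Dnmt3a+/- cells, 169 became 855, 633, 494 and 89, 42 in the 4 libraries alone and 75 to 291. For genotype, 0 became 30 with the block, 61 without the filter and 16 by DESeq2, and 0 to 3 without a library. Within Vwf+ cells it became 6, 53 and 5, within Vwf- cells 2, 27 and 2, and in the interaction 24 without the filter. For sex, 1677 became 287 by limma and 713 to 2922 without a library.

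Signs turned among differences that had not passed. A group left with 1 library was assumed to vary like the others. Leaving out 1 library moved the averaged Vwf difference of Tcf7 over −0.73 to 0.21 and of Notch3 over −0.14 to 0.55. In WT it moved Dntt over −0.11 to 0.54, Tcf7 over −0.7 to 0.21 and Lef1 over −6.21 to 0.24, and in Dnmt3a+/- cells Tcf7 over −1.14 to 0.75.

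For genotype, averaged, it moved Satb1 over −0.23 to 0.04, Ikzf1 over −0.07 to 0.11, Tcf7 over −0.75 to 0.18, Lef1 over −0.74 to 3.18, Cd27 over −0.03 to 0.15, Cd37 over −0.12 to 0.18 and Cd52 over −0.12 to 0.7. In Vwf+ cells it moved Dntt over −1.04 to 0.67, Satb1 over −0.21 to 0.09, Ikzf1 over −0.05 to 0.28, Tcf7 over −0.78 to 0.19, Lef1 over −2.18 to 5.67, Cd27 over −0.11 to 0.23, Cd37 over −0.2 to 0.17, Cd52 over −0.93 to 0.71 and Bcl11a over −0.1 to 0.01. In Vwf- cells it moved Satb1 over −0.38 to 0.16, Ikzf1 over −0.26 to 0.08, Tcf7 over −1.29 to 0.59, Lef1 over −0.26 to 1.26, Cd37 over −0.24 to 0.38 and Cd52 over −0.1 to 1.17.

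In the interaction it moved Satb1 over −0.23 to 0.31, Notch1 over −0.18 to 0.04, Tcf7 over −0.82 to 1.07, Lef1 over −2.89 to 4.97, Cd27 over −0.17 to 0.17, Cd37 over −0.38 to 0.23, Cd52 over −1.6 to 0.23 and Bcl11a over −0.04 to 0.06. For sex it moved Satb1 over −0.23 to 0.07 and Tcf7 over −0.95 to 0.02.

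The replicate block turned Dntt (−0.12) and Cd52 (−0.04) for genotype in Vwf+ cells and Lef1 (0.16) in the interaction. By limma Bcl11a turned for Vwf status in WT (−0.03), genotype (0.01), genotype in Vwf+ cells (0.09) and sex (−0.01), Satb1 (0.05) and Cd37 (0.12) for genotype in Vwf+ cells, and Notch1 (0.09), Tcf7 (0.05) and Cd37 (0.09) in the interaction. Upper-quartile scaling gave Cd37 0.01 for genotype in Vwf+ cells, Tcf7 0 in Vwf- cells, Cd27 and Bcl11a 0 in the interaction and Bcl11a 0 for sex, and DESeq2 gave Cd27 0 in the interaction. By limma the median of all tested genes was itself −0.11 for Vwf status in WT, 0.04 for genotype and 0.12 for genotype in Vwf+ cells. It was 0.15 in the interaction and −0.04 for sex. The cause of the turned signs was not tested.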
